A study of Mus musculus with 12 samples.

Results

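The 2 Foxp3 alleles named M354 and M176 were compared in regulatory T cells (Tregs) taken from the mouse spleen. The members of the comparison are 4 expression arrays, 2 of M354 Tregs and 2 of M176 Tregs, out of the 12 arrays of the series, chosen by their labelled cells and genotype. The M354 Tregs came from Foxp3(M354/M354) mice, the M176 Tregs from Foxp3(M176/M176) mice, and 2 further arrays of Tregs from Foxp3(WT/WT) mice give the wild-type (WT) level. All of these mice were male C57Bl/6 animals 6 weeks old, and their Tregs were sorted 2 times as live CD4+ cells with the highest CD25, the receptor for interleukin-2 by which Tregs are commonly picked. Since the gate was set on CD25 and not on Foxp3, the sorted cells are defined by a surface marker. The design text speaks of treated mice, but which treatment is not given in the sources used here, nor what amino acid change each allele name stands for. The other 6 arrays hold wild-type conventional T cells that were transduced by retrovirus with M354, M176 or WT Foxp3 and sorted as Thy1.1high cells, 2 arrays each. The age given for these 6 arrays is also 6 weeks. They serve here only to set the allele difference in Tregs beside the same pair of alleles in another kind of cell. No label tells if replicate arrays are different animals. What the p-values reflect is array-to-array scatter, which may be technical.

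Foxp3 is the forkhead transcription factor that defines Tregs, the CD4+ T cells that hold other immune cells in check, and mice or people without it develop fatal autoimmunity. Tregs leave the thymus in a resting state, with receptors for lymph node homing, and a part of them later turns into effector Tregs. Effector Tregs divide, carry chemokine receptors that lead them into tissues, and express molecules such as Klrg1, Tigit, granzyme B and the transcription factor Maf.

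The values are the deposited RMA intensities of Affymetrix Mouse Gene ST 1.0 arrays, one per probe set, on a linear scale. A probe set naming 1 gene was used, the brightest one where a gene had several, which gave 16426 genes. Of these, the 8918 that exceeded the array's median intensity on 2 or more arrays were tested. Array medians ranged from 111.6 to 117.4 in M354 Tregs, against 104.1 to 104.4 in M176 Tregs and 109.1 to 113.1 in WT Tregs, and the 2 arrays of each group correlated at 0.993 to 0.995 (Pearson's r across genes, which are not independent). The cells carried the markers of the labelled cell type. Cd4, the co-receptor of the sort gate, had 3024 and 4375 in M354 Tregs, against 3347 and 2998 in M176 Tregs. WT Tregs had 3709 and 3687. Across the 12 tested CD4 T cell identity markers the mean log2 intensity was 11.18 and 11.28 in M354 Tregs, 11.27 on both M176 arrays, and 11.34 and 11.26 in WT Tregs. The M176 Treg arrays and 1 WT Treg array stood apart. Small nucleolar RNAs (snoRNAs), which guide the chemical modification of ribosomal RNA, had a mean log2 intensity of 8.66 and 8.78 on the M354 arrays, against 9.98 and 10.04 on the M176 arrays and 8.74 and 8.87 on the WT arrays, so both M176 arrays lay above every other Treg array. On the second WT array B cell genes were high: the summed intensity of 14 B cell markers was 5384 there and 2601 on the first WT array, against 2757 and 2796 in M354 Tregs and 2503 and 2355 in M176 Tregs. In the comparison of M354 with M176, the WT arrays enter the shared estimate of the spread, the filter and the choice of probe set. Few genes of chromosomes 1, 10 and 11 are in the table (29, 15 and 226 genes), so that Ctla4, Ikzf2, Icos, Il10 and Prdm1 were not analysed here.

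Foxp3 itself was measured at a higher level in M354 than in M176 Tregs. Its probe set read 5991 and 5485 in M354 Tregs, against 3442 and 3321 in M176 Tregs and 5913 and 5327 in WT Tregs, and the M176 arrays lay below all others. The log2 difference (M354 minus M176, with limma's SE) was 0.76 ± 0.13 (adjusted p = 0.000274), where the p-value is adjusted over all 8918 genes by Benjamini and Hochberg's method. With the snoRNA level of each array added to the fit the Foxp3 difference was 0.60 and no longer called (adjusted p = 0.099). M354 differed from WT by 0.03 ± 0.13 (adjusted p = 0.972), while M176 differed from WT by -0.73 ± 0.13 (adjusted p = 0.000552). Both mutant genes are still transcribed, so this level does not check the genotype labels. In transduced cells, where the probe set also reads the retroviral transcript, Foxp3 had 5340 and 5821 with the M354 allele, 5663 and 5233 with the M176 allele, and 5945 and 6163 with the WT allele. In these bulk samples, fewer cells of a kind and less RNA per cell cannot be told apart, for Foxp3 and for every gene below.

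The 2 kinds of Tregs differed at many genes. At an adjusted p under 0.05, 2747 of 8918 genes (30.8%) were called, 1129 higher in M354 (12.7%) and 1618 lower in M354 (18.1%), and 135 of the higher and 245 of the lower differed by more than 2-fold. The 2 M354 arrays and the 2 M176 arrays did not overlap at 6189 genes (69.4%), so that a gap between the arrays is common here and says little of a single gene. The number of calls depended on single arrays: it was 1355 without M354 array 1 (591 higher, 764 lower), 1343 without M176 array 1 (539 higher, 804 lower) and 1875 without M176 array 2 (694 higher, 1181 lower). The split between higher and lower also depended on scaling. With each array centred on its median, the median gene stood at -0.165 on the log2 scale, beside -0.022 without centring, and the split was 564 higher and 2324 lower. It was 1501 and 1477 with quantile normalization, 1397 and 1438 with cyclic loess, and 1689 and 1607 with no filter, so the excess of lower calls is not kept under these settings. Differences of that size in single genes or gene groups are therefore read relative to the median of all genes. With the snoRNA level of each array added to the fit, 570 genes were called, 166 higher and 404 lower. Counts of gene lists with the snoRNA level in the fit are to be read beside these totals.

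**Figure D1:**
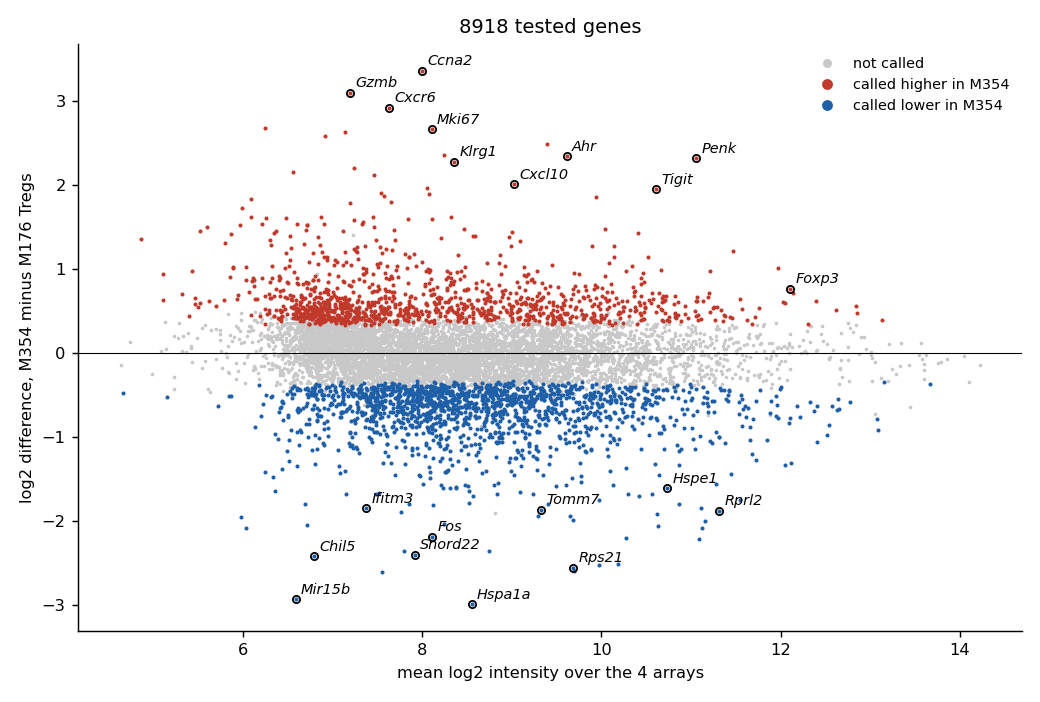
Each point is 1 of 8918 tested genes, placed by its mean log2 intensity over the 2 M354 and 2 M176 Treg arrays (x axis) and its log2 difference, M354 minus M176 (y axis). Genes called at an adjusted p under 0.05 are red where higher in M354 (1129) and blue where lower in M354 (1618), and Ccna2 with 3.35 and Hspa1a with -2.98 mark the extremes.

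Genes of the effector Treg state were higher in M354 Tregs. Of 20 tested effector Treg genes, 18 rose and none fell, with a median log2 difference of 1.05, beside -0.022 over all tested genes. With the snoRNA level in the fit of each array, which sets both M176 arrays apart, 10 rose. Gzmb, the cytotoxic protease granzyme B, had 338 and 541 in M354 Tregs, against 47.6 and 52.8 in M176 Tregs. WT Tregs had 293 and 418. The M354 and WT arrays overlapped while both M176 arrays were near the low end of the scale, and the difference was 3.09 ± 0.21 (adjusted p = 3.11e-08). Klrg1, an inhibitory lectin receptor of terminally differentiated Tregs, had 596 and 872 in M354 Tregs, against 172 and 129.6 in M176 Tregs. WT Tregs had 640.1 and 801. It also separated M176 from the other Treg groups, with a difference of 2.27 ± 0.18 (adjusted p = 3.11e-07). Tigit, an inhibitory receptor that marks highly suppressive Tregs, had 2906 and 3220.1 in M354 Tregs, against 756 and 830.3 in M176 Tregs. WT Tregs had 2305 and 1857. The difference was 1.95 ± 0.14 (adjusted p = 5.93e-08), and here the M354 arrays also lay above the WT arrays. Maf, a transcription factor of effector and tissue Tregs, had 1723 and 1791 in M354 Tregs, against 645 and 618 in M176 Tregs (difference 1.48 ± 0.12, adjusted p = 4e-07). The other 2 members were not called: Batf with a difference of 0.06 ± 0.13 (adjusted p = 0.771) and Lgals1 with 0.11 ± 0.13 (adjusted p = 0.532). Markers of red cells and platelets were also higher, 3 of 4 (1 without M354 array 1 or M176 array 2): the summed intensity of 4 erythroid and platelet markers was 635 and 517 in M354 Tregs, against 369 and 343 in M176 Tregs, and their part in the result was not tested.

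**Figure D2:**
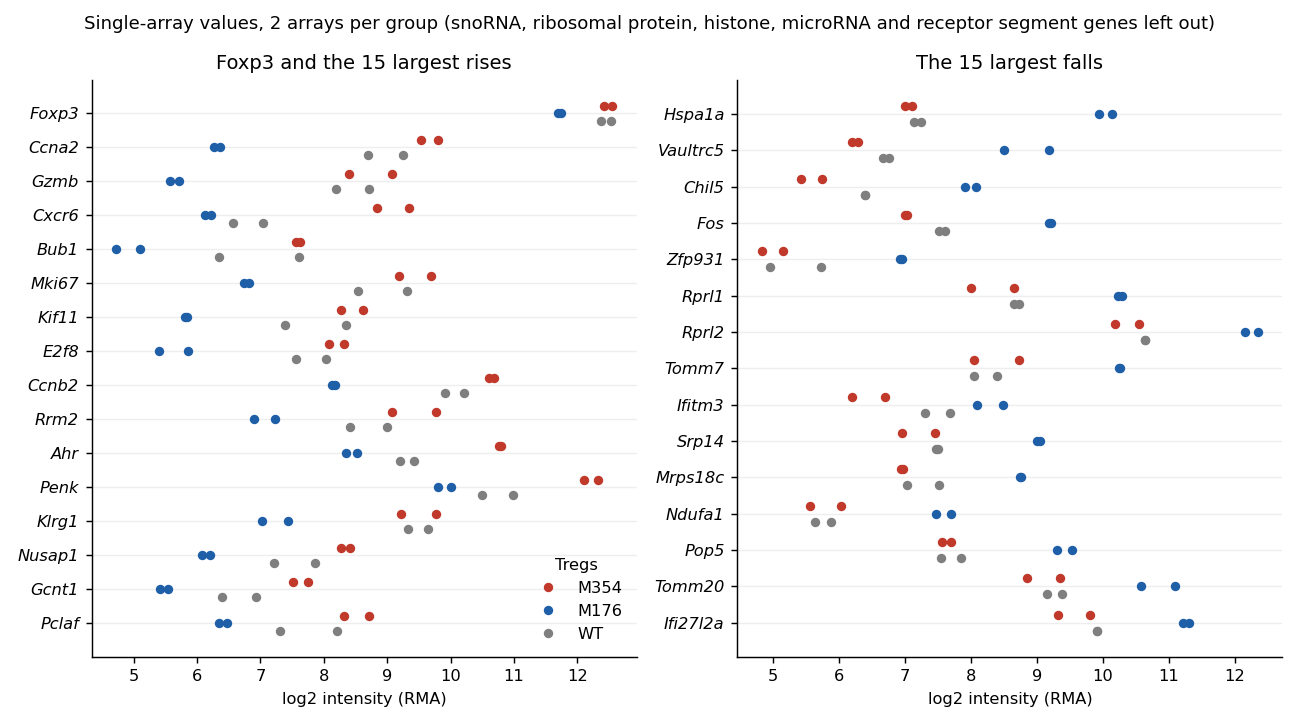
Log2 intensity of Foxp3 and the 15 largest rises (left) and the 15 largest falls (right) of M354 against M176 Tregs among called genes outside the snoRNA, ribosomal protein, histone, microRNA and T cell receptor or immunoglobulin segment classes, with 1 point per array, 2 arrays per group, in red for M354, blue for M176 and grey for WT. In no gene shown do the M354 and M176 points overlap, which the choice of the genes required, and the WT points lie at the M354 end for Klrg1 and Gzmb but nearer to the M176 points for Cxcr6.

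Chemokine receptors were mostly higher in M354 Tregs. Of 12 chemokine receptors tested, 9 rose and 2 fell, with a median difference of 0.68. With the snoRNA level in the fit 5 rose. Cxcr6, the receptor for Cxcl16 on tissue-resident T cells, had 458 and 649.8 in M354 Tregs, against 70.1 and 74.6 in M176 Tregs. WT Tregs had 94.9 and 132. Only the M354 arrays were high, so that Cxcr6 differed from M176 by 2.92 ± 0.19 (adjusted p = 3.11e-08) and from WT by 2.28 ± 0.19 (adjusted p = 6.46e-06). Ccr8, found on Tregs of skin and tumours, had 736 and 848 in M354 Tregs, against 316 and 337 in M176 Tregs (difference 1.28 ± 0.15, adjusted p = 1.13e-05). Ccr6, the receptor for Ccl20, had 303 and 389.6 in M354 Tregs, against 155 and 157 in M176 Tregs (difference 1.14 ± 0.15, adjusted p = 3.63e-05). WT Tregs had 418 and 526, above both M354 arrays. Ccr2, the receptor for Ccl2, had 125 and 142 in M354 Tregs, against 49.7 and 49.4 in M176 Tregs. WT Tregs had 173 and 269.8. Its M354 level was between that of M176 and that of WT, with a difference of 1.42 ± 0.20 (adjusted p = 6.4e-05) from M176. Ccr9, the gut-homing receptor of T cells that have just left the thymus, ran the other way with 134 and 118 in M354 Tregs, against 394 and 298 in M176 Tregs and 181 and 212 in WT Tregs (difference -1.45 ± 0.15, adjusted p = 3.62e-06). Receptors for lipids and adhesion did not move one way: of 21 migration and adhesion receptors, 6 rose and 9 fell. Cysltr1, a leukotriene receptor, rose by 1.39 ± 0.14 (adjusted p = 2.94e-06), while Icam2, a ligand of the integrin LFA-1, had 194 and 194 in M354 Tregs, against 487 and 436 in M176 Tregs and fell (-1.25 ± 0.14, adjusted p = 9.03e-06).

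Cytokine and cytotoxic granule genes were also higher on balance. Of 14 cytokines and chemokines of T cells, 8 rose and 1 fell, with a median of 0.50, and 5 rose with the snoRNA level in the fit. Penk, which encodes the precursor of the enkephalin peptides and is abundant in activated Tregs, had 4428 and 5122 in M354 Tregs, against 1025 and 892 in M176 Tregs. WT Tregs had 2018 and 1447. Both M354 arrays lay above both WT arrays and the WT arrays above the M176 arrays, and the difference from M176 was 2.32 ± 0.19 (adjusted p = 3.23e-07). Cxcl10, an interferon-induced chemokine that attracts Cxcr3+ T cells, had 1180.2 and 928 in M354 Tregs, against 272 and 249 in M176 Tregs. WT Tregs had 245 and 268. M176 and WT overlapped and M354 alone was high, by 2.01 ± 0.15 (adjusted p = 1.77e-07) against M176. Ebi3, a subunit of interleukin-27 and interleukin-35, had 506 and 736 in M354 Tregs, against 301 and 283 in M176 Tregs and 300.3 and 324 in WT Tregs, again with M354 above both other groups and a difference of 1.06 ± 0.17 (adjusted p = 0.000206). Csf1, the macrophage growth factor, differed by 1.15 ± 0.13 (adjusted p = 8.95e-06) and had nearly the same level in M354 and WT (-0.01 ± 0.13, adjusted p = 0.995). Ltb, lymphotoxin beta, was the member that fell (-0.95 ± 0.17, adjusted p = 0.000638). Among 7 cytotoxic granule genes 4 rose and 2 fell, and the number that rose was 2 without M354 array 1, without M176 array 2 or with the snoRNA level in the fit. Nkg7, a granule membrane protein, had 2466 and 2031 in M354 Tregs, against 904 and 764 in M176 Tregs (difference 1.43 ± 0.16, adjusted p = 7.53e-06).

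Transcription factors of helper and effector lineages also rose as a group, 16 of 25, with 3 lower and a median of 0.54, and the number that rose was 10 without M176 array 1 and 6 with the snoRNA level in the fit. Ahr, the aryl hydrocarbon receptor, a ligand-activated factor of Tregs in the gut, had 1783 and 1732 in M354 Tregs, against 368 and 328 in M176 Tregs. WT Tregs had 589.8 and 689.5. The 3 Treg groups did not overlap, and M354 differed from M176 by 2.34 ± 0.15 (adjusted p = 1.7e-08) and from WT by 1.46 ± 0.15 (adjusted p = 3.17e-05). Bhlhe40, a repressor induced by T cell activation, had 405 and 540.0 in M354 Tregs, against 250.1 and 230.1 in M176 Tregs and 229.5 and 220.5 in WT Tregs, so that M354 alone was high (difference 0.96 ± 0.14, adjusted p = 0.000111). Id3, an inhibitor of E proteins that keeps T cells from becoming effectors, ran the other way, with 302 and 312 in M354 Tregs, against 1088 and 856 in M176 Tregs. WT Tregs had 412 and 305. M354 and WT overlapped there and M176 was high, with a difference of -1.65 ± 0.16 (adjusted p = 2.03e-06). Gcnt1, an enzyme that builds the sugars recognised by selectins and is no member of these lists, was also among the largest rises, with 184 and 216 in M354 Tregs, against 42.8 and 46.7 in M176 Tregs (difference 2.16 ± 0.16, adjusted p = 1.35e-07). It passed the filter through both M354 arrays and 1 WT array, and through no M176 array.

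Genes that distinguish Tregs from other CD4 T cells were less uniform. Of 31 tested Treg signature genes, 13 rose and 2 fell, with a median of 0.31. The number that rose was 8 without M354 array 2, 8 without M176 array 1, 8 with median centring and 5 with the snoRNA level in the fit. Gpr15, a gut-homing receptor, had 155 and 143 in M354 Tregs, against 84.2 and 78.3 in M176 Tregs (difference 0.87 ± 0.16, adjusted p = 0.00053). S100a4, a calcium-binding protein of motile cells, had 224 and 303 in M354 Tregs, against 150.4 and 105 in M176 Tregs (difference 1.05 ± 0.18, adjusted p = 0.000446). Il2ra, which encodes the CD25 of the sort gate, had 8012 and 7489 in M354 Tregs, against 6211 and 6366 in M176 Tregs and 8497 and 9012 in WT Tregs, a difference that was not called (0.30 ± 0.12, adjusted p = 0.0759). Il2rb (0.23 ± 0.13, adjusted p = 0.177), Tnfrsf4 (0.13 ± 0.14, adjusted p = 0.489) and Tnfrsf9 (-0.04 ± 0.15, adjusted p = 0.872) were not called either. Gpr83, an orphan receptor of the Treg signature, had 1042 and 1097 in M354 Tregs, against 1566 and 1532 in M176 Tregs. WT Tregs had 2588 and 2224. It was lower in M354 than in M176 (-0.54 ± 0.15, adjusted p = 0.0135), a call that was lost without M354 array 1 (adjusted p = 0.093), M176 array 1 (0.086) or M176 array 2 (0.056). Of 14 genes known to be low in Tregs, 8 fell and none rose, and 5 fell without M176 array 1 and 4 with the snoRNA level in the fit. Dapl1, a marker of quiescent T cells, had 800.5 and 622 in M354 Tregs, against 2259.8 and 2258 in M176 Tregs and 554 and 639 in WT Tregs (difference -1.68 ± 0.15, adjusted p = 9.93e-07), so that the M176 arrays stood far above both other groups. Trat1, an adaptor of the T cell receptor complex, had 641 and 569 in M354 Tregs, against 1429 and 1304 in M176 Tregs (difference -1.18 ± 0.15, adjusted p = 2.86e-05). Genes of resting and central Tregs fell in 5 of 11 cases and rose in none, with a median of -0.26. Klf2, which drives expression of homing receptors, had 403 and 583 in M354 Tregs, against 1036 and 1102 in M176 Tregs and 737 and 606 in WT Tregs (difference -1.14 ± 0.17, adjusted p = 0.000104). Satb1, a chromatin organiser that is repressed by Foxp3, had 1320.4 and 1622 in M354 Tregs, against 2876 and 3059 in M176 Tregs and 2631 and 2826 in WT Tregs, so that here M354 was below both other groups (-1.02 ± 0.14, adjusted p = 3.88e-05 against M176). S1pr1, the receptor for exit from lymphoid organs, fell (difference -0.59 ± 0.12, adjusted p = 0.00184), whereas Il7r (-0.14 ± 0.13, adjusted p = 0.434) and Foxo1 (-0.13 ± 0.14, adjusted p = 0.539) were not called.

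**Figure D3:**
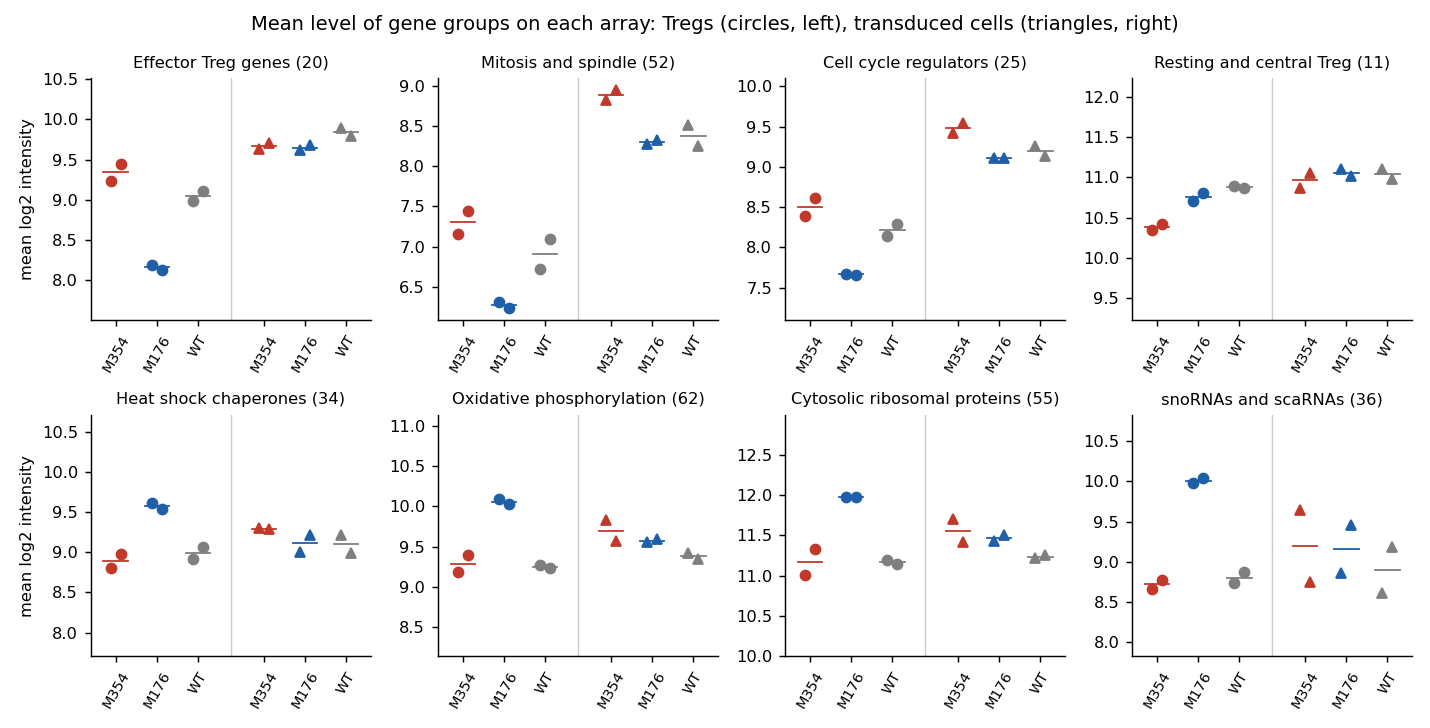
Mean log2 intensity of the tested genes of 8 groups (number of genes in brackets) on each array, for Tregs (circles) and transduced cells (triangles), in the order M354, M176 and WT, with a bar at each group's mean and a range of 3 log2 units on each axis. M354 Tregs lie above M176 Tregs in the effector, mitosis and cell cycle groups, below them and WT in the resting group, and below M176 Tregs in the heat shock, oxidative phosphorylation, ribosomal protein and snoRNA groups, where M354 and WT Tregs lie close together.

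Genes of cell division were higher in M354 Tregs. Of 52 mitosis and spindle genes, 40 rose and 1 fell, with a median of 0.99. Of 25 cell cycle regulators, 18 rose and 2 fell, with a median of 0.68. Of 50 genes of DNA replication and nucleotide synthesis, 22 rose and 1 fell, with a median of 0.39. Without M354 array 2 the last count was 14, and it was also 14 with median centring. With the snoRNA level in the fit 19 mitosis genes, 6 cell cycle regulators and 5 replication genes rose. In that fit 166 of all 8918 genes rose, against 1129 without it. Ccna2, cyclin A2 of S phase and mitosis, had 743 and 895 in M354 Tregs, against 82.6 and 76.9 in M176 Tregs. WT Tregs had 417 and 606. It was the largest rise of any tested gene, at 3.35 ± 0.17 (adjusted p = 2.04e-09), or 10.2-fold. Mki67, the proliferation marker Ki-67 that coats mitotic chromosomes, had 582 and 825 in M354 Tregs, against 113 and 107 in M176 Tregs and 370.4 and 637 in WT Tregs (difference 2.66 ± 0.21, adjusted p = 2.16e-07). Ccnb2, cyclin B2, had 1553 and 1643 in M354 Tregs, against 290.4 and 280.0 in M176 Tregs and 959 and 1190.4 in WT Tregs (difference 2.49 ± 0.15, adjusted p = 1.45e-08). In each of these 3 genes both M176 arrays lay below both WT arrays, and M354 overlapped with WT only for Mki67. Among the motors and checkpoint proteins of the spindle, Bub1 had 188 and 196 in M354 Tregs, against 26.5 and 34.4 in M176 Tregs (difference 2.67 ± 0.30, adjusted p = 7.75e-06). The kinesin Kif11 had 310.0 and 395 in M354 Tregs, against 57.3 and 56.3 in M176 Tregs (difference 2.62 ± 0.22, adjusted p = 3.58e-07). Plk1, the kinase that drives mitotic entry, rose by 1.90 ± 0.18 (adjusted p = 2.03e-06), and Nusap1, which bundles spindle microtubules, by 2.20 ± 0.20 (adjusted p = 1.35e-06). E2f8, a repressor that ends the S phase programme, rose by 2.58 ± 0.18 (adjusted p = 5.93e-08). Rrm2, the subunit of ribonucleotide reductase that is made in S phase, rose by 2.36 ± 0.21 (adjusted p = 8.63e-07), and Pclaf, a partner of the replication clamp, by 2.11 ± 0.24 (adjusted p = 7.84e-06). Rpa3, the smallest subunit of the single-strand binding protein, was the replication gene that fell, with 143 and 186 in M354 Tregs, against 392.2 and 358 in M176 Tregs (difference -1.20 ± 0.17, adjusted p = 8.3e-05).

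Late cell cycle genes are known to be controlled through 2 short promoter elements, the CCAAT box and the cell cycle homology region, and their letters could be read in the genes that moved together here. In windows of 250 bases before to 50 bases after the annotated start (RefSeq, GRCm38.p6), TTTGAA or TTCGAA on either strand, the letters of the cell cycle homology region, occurred in 35 of 45 windows of the mitosis and spindle genes (77.8%), in 13.8% of the 8981 windows of tested genes and in 19.2% of all 32851 windows of the table. CCAAT on either strand occurred in 66.7% of the mitosis windows and 37.4% of the windows of tested genes. The forkhead letters TGTTTAC or TGTTTGC occurred in 6.7% of the mitosis windows and 5.9% of the windows of tested genes. In windows of genes called higher, forkhead letters occurred in 5.9%, those of the cell cycle homology region in 16.8% and CCAAT in 35.7%. For genes called lower these shares were 6.5%, 14.4% and 39.7%. A match describes letters in a window and is not a bound site. The windows of 5 genes that rose are shown, in the gene's own direction from 5′ to 3′, with matches to both elements in capitals: 
Mki67, chr7:135716330-135716629, minus strand: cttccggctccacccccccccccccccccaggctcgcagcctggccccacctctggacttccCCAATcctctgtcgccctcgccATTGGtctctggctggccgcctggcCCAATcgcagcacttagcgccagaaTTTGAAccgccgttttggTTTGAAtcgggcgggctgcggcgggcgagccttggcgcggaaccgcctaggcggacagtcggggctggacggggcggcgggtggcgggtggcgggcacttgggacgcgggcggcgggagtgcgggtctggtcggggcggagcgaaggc
Kif11, chr19:37376132-37376431, plus strand: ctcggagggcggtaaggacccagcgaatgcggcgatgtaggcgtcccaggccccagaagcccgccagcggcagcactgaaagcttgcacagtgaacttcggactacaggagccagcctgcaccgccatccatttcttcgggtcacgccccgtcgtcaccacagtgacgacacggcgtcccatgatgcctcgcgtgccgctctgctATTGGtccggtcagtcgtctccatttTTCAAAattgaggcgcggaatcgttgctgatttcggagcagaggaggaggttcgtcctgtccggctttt
Bub1, chr2:127831810-127832109, minus strand: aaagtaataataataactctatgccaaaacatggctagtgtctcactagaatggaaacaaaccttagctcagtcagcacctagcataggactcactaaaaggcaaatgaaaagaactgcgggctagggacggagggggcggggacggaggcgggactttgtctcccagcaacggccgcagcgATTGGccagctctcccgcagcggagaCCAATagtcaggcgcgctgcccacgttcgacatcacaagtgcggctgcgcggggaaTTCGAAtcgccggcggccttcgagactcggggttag
Ccnb2, chr9:70421505-70421804, minus strand: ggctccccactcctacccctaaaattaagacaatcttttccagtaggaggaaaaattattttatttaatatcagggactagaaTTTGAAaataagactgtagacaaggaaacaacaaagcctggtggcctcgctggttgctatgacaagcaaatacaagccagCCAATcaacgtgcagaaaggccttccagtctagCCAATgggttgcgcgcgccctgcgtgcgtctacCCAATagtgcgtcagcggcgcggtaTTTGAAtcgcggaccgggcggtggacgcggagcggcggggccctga
Plk1, chr7:122159185-122159484, plus strand: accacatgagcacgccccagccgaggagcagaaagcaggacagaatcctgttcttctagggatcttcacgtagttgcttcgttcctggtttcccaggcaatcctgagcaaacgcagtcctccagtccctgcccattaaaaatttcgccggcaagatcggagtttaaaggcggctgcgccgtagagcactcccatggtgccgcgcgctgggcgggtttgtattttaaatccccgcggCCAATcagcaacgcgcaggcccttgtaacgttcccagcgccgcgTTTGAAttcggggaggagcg

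T cell receptor and AP-1 immediate response genes were lower on balance in M354 Tregs: 13 of 28 fell and 3 rose, with a median of -0.33, and 5 fell with the snoRNA level in the fit. Fos, a subunit of AP-1 that is switched on within minutes of stimulation, had 131 and 129 in M354 Tregs, against 584 and 593 in M176 Tregs. WT Tregs had 196 and 184. The M176 arrays stood above both other groups and M354 was lowest, with a difference of -2.18 ± 0.13 (adjusted p = 1.7e-08). Cd69, an early activation marker that retains T cells in tissue, had 1238 and 1306 in M354 Tregs, against 2801 and 2813 in M176 Tregs and 1603 and 1813 in WT Tregs (difference -1.14 ± 0.14, adjusted p = 1.46e-05). Pim1, a survival kinase, had 618 and 1010.5 in M354 Tregs, against 1639 and 1715 in M176 Tregs and 1698 and 1534 in WT Tregs, with M354 below both other groups (difference -1.09 ± 0.18, adjusted p = 0.000276). Nr4a2, an orphan nuclear receptor induced by T cell receptor signals, was among the 3 that rose (0.92 ± 0.15, adjusted p = 0.000295). Over all tested genes, 12.7% were called higher and 18.1% lower, and the counts of proximal signalling genes were near these shares. Of 35 proximal T cell receptor signalling genes, 6 rose and 7 fell, with 3 and 4 without M354 array 1 and 5 and 4 without M176 array 2. Cblb, a ubiquitin ligase that restrains signalling, had 3119 and 2913 in M354 Tregs, against 1803 and 1866 in M176 Tregs (difference 0.72 ± 0.13, adjusted p = 0.000517). Cd3d, a chain of the receptor complex, had 802 and 1097 in M354 Tregs, against 2260.5 and 1890.3 in M176 Tregs (difference -1.14 ± 0.20, adjusted p = 0.000499). Cd3e, another chain of the complex, went the other way, with 7955 and 7045 in M354 Tregs, against 5267 and 5269 in M176 Tregs (difference 0.51 ± 0.12, adjusted p = 0.00546).

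Surface receptors of co-stimulation, integrins and the TNF receptor family changed in part. Among 19 co-inhibitory and co-stimulatory receptors 8 rose and none fell, but the count was between 3 and 4 without any 1 of the 4 arrays compared, 3 with median centring and 1 with the snoRNA level in the fit. Cd80, a ligand of CD28 and CTLA-4, had 221 and 236 in M354 Tregs, against 129.6 and 86.3 in M176 Tregs (difference 1.11 ± 0.17, adjusted p = 0.000116). WT Tregs had 316 and 375.5, above both mutants. Lag3, an inhibitory receptor for MHC class II, had 236 and 261 in M354 Tregs, against 155 and 160.0 in M176 Tregs (difference 0.66 ± 0.14, adjusted p = 0.00184). Among 15 TNF receptor superfamily members 6 rose and 2 fell, and the number that rose was 1 with median centring, 2 without M354 array 1 or M176 array 1, and 1 without M176 array 2 or with the snoRNA level in the fit. Tnfrsf8, which encodes CD30, rose by 0.85 ± 0.12 (adjusted p = 9.78e-05), and Fas, the death receptor, had 232 and 228 in M354 Tregs, against 391 and 424 in M176 Tregs and fell (-0.82 ± 0.13, adjusted p = 0.00015). In the TGF-beta and integrin axis 8 of 25 rose and 2 fell, with 3 that rose without M176 array 1, 5 without M176 array 2, 4 with median centring and 1 with the snoRNA level in the fit. Itgb1, the beta-1 integrin, had 1031 and 1284 in M354 Tregs, against 636 and 556 in M176 Tregs and 593 and 640.2 in WT Tregs, high in M354 alone (difference 0.95 ± 0.15, adjusted p = 0.00015). Itga2, its collagen-binding partner, differed by 1.05 ± 0.16 (adjusted p = 0.000173), and Itgb8, which releases active TGF-beta, by 0.84 ± 0.15 (adjusted p = 0.000597). Itgb7, the beta chain of the gut-homing integrin, fell (difference -0.76 ± 0.15, adjusted p = 0.00151).

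Interferon response genes were lower on balance in M354 Tregs: 15 of 39 fell and 3 rose, with a median of -0.28, and the number that fell was 7 without M354 array 1, 6 without M176 array 1 and 4 with the snoRNA level in the fit. Ifitm3, a membrane protein that blocks virus entry, had 73.9 and 104 in M354 Tregs, against 360.0 and 273 in M176 Tregs and 158 and 205 in WT Tregs (difference -1.84 ± 0.20, adjusted p = 5.46e-06). Ifi27l2a, a small mitochondrial membrane protein, had 642 and 894 in M354 Tregs, against 2536 and 2391 in M176 Tregs and 969 and 959 in WT Tregs (difference -1.70 ± 0.19, adjusted p = 7.75e-06). In both genes the M176 arrays were above the WT arrays and the M354 arrays below them. Rtp4, a chaperone of receptors, fell (difference -1.01 ± 0.17, adjusted p = 0.00033), and Usp18, which removes the ubiquitin-like protein ISG15, fell likewise (difference -0.98 ± 0.16, adjusted p = 0.00027). Letters of the interferon response element, GAAANNGAA on either strand, occurred in 48.5% of 33 windows of the interferon list and in 6.7% of windows of tested genes. Cxcl10, the member that rose most, has 1 such match in its window, shown in capitals: 
Cxcl10, chr5:92348840-92349139, minus strand: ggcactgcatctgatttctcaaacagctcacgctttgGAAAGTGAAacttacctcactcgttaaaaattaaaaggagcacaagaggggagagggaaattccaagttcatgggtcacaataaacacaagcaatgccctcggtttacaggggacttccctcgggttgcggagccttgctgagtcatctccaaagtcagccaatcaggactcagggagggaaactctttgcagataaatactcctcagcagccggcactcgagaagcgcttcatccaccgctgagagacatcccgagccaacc

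Most heat shock chaperones were lower in M354 Tregs. Of 34 tested, 22 fell and 1 rose, with a median of -0.68, and 13 fell without M354 array 1 and 6 with the snoRNA level in the fit. Hspa1a, the inducible HSP70 that refolds damaged protein, had 138 and 129 in M354 Tregs, against 984 and 1135 in M176 Tregs. WT Tregs had 152 and 141. The M354 and WT arrays lay within a narrow range and the M176 arrays stood far above them, which made Hspa1a the largest fall of any tested gene, at -2.98 ± 0.13 (adjusted p = 2.56e-10). Hspe1, the mitochondrial HSP10 that caps the HSP60 chamber, had 787 and 1201 in M354 Tregs, against 2924 and 3006 in M176 Tregs and 982 and 952 in WT Tregs (difference -1.61 ± 0.17, adjusted p = 5.46e-06), and Dnajb1, the HSP40 co-chaperone of HSP70, had 353 and 371 in M354 Tregs, against 864 and 855 in M176 Tregs (difference -1.25 ± 0.13, adjusted p = 2.94e-06). Dnajb4, another HSP40, had 209.6 and 174 in M354 Tregs, against 458 and 559.9 in M176 Tregs and 186 and 416 in WT Tregs, where the second WT array lay close to the M176 arrays (difference -1.41 ± 0.26, adjusted p = 0.000623). The difference between Tregs and transduced cells was called at 22 of the 34, all in the negative direction. Over all tested genes it was called at 17.8%, with 540 in the positive and 1048 in the negative direction. Letters of the heat shock element core, GAANNTTC on either strand, occurred in 11 of 36 windows of this list (30.6%) and in 5.9% of windows of tested genes. The windows of Hspa1a and Hspe1 are shown with these letters and any CCAAT box in capitals, since both genes fell and each holds a match: 
Hspa1a, chr17:34972107-34972406, minus strand: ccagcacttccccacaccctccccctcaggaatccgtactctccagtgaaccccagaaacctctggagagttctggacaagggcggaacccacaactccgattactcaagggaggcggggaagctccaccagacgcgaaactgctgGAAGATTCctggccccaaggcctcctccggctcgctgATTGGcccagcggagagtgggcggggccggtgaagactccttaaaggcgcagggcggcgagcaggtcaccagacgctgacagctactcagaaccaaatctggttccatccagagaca
Hspe1, chr1:55087898-55088197, plus strand: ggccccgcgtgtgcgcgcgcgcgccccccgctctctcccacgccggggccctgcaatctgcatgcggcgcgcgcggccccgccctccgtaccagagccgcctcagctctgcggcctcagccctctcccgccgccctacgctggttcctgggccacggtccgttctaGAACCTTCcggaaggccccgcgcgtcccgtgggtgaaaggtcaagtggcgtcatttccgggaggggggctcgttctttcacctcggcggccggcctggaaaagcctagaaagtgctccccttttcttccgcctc

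Genes of other stress and metabolic pathways were counted beside all tested genes, of which 12.7% were called higher and 18.1% lower. Of 32 genes of the unfolded protein and amino acid responses 3 rose and 3 fell, and the number that rose was 1 without either M176 array and 1 with median centring. Asns, asparagine synthetase, rose by 1.25 ± 0.22 (adjusted p = 0.000481), while Herpud1, a protein of endoplasmic reticulum degradation, fell (difference -0.66 ± 0.14, adjusted p = 0.00187). Of 21 cholesterol synthesis genes 7 fell and 1 rose, with 2 that fell without M354 array 1 or M176 array 1, 11 with median centring and 1 with the snoRNA level in the fit. Msmo1, a sterol oxidase, fell (difference -0.98 ± 0.18, adjusted p = 0.000576). Glycolysis and hypoxia genes rose in 5 and fell in 6 of 33 cases; 3 fell without M354 array 1 and 2 to 3 rose without M354 array 1, M176 array 1 or M176 array 2. Egln3, an oxygen sensor, was higher by 1.23 ± 0.17 (adjusted p = 6.59e-05) and Pdk1, a kinase that inhibits pyruvate dehydrogenase, fell (difference -0.78 ± 0.14, adjusted p = 0.000529). Of 32 lysosome and autophagy genes 12 fell and none rose, 7 without M354 array 1 and 3 with the snoRNA level in the fit, among them Gabarapl2, a protein of the autophagosome membrane (difference -1.06 ± 0.14, adjusted p = 4.5e-05, or 0.066 with the mean of its probe sets).

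Transcripts of the translation and respiration machinery were lower in M354 than in M176 Tregs. Of 36 tested snoRNAs and related Cajal body RNAs 24 fell and none rose, with a median of -1.20. Snord22 had 99.1 and 112 in M354 Tregs, against 519 and 595 in M176 Tregs and 99.6 and 117 in WT Tregs (difference -2.40 ± 0.19, adjusted p = 2.05e-07), and Snord15a had 83.2 and 118 in M354 Tregs, against 493 and 516 in M176 Tregs (difference -2.35 ± 0.24, adjusted p = 4.02e-06). Of 55 cytosolic ribosomal protein genes 37 fell and none rose, with a median of -0.70. Rps21, a protein of the small subunit, had 269 and 429 in M354 Tregs, against 1867 and 2122 in M176 Tregs and 371 and 328 in WT Tregs (difference -2.55 ± 0.21, adjusted p = 3.23e-07), and Rpl24, of the large subunit, had 502 and 659.8 in M354 Tregs, against 2614 and 2692 in M176 Tregs (difference -2.20 ± 0.15, adjusted p = 3.11e-08). The mitochondrial ribosome showed the same direction in 48 of 60 genes, with none higher and a median of -0.57; 28 fell without M354 array 1 and 29 without M176 array 1. Mrps18c, of its small subunit, had 123 and 125 in M354 Tregs, against 435 and 429 in M176 Tregs (difference -1.80 ± 0.18, adjusted p = 2.2e-06). Of 62 subunits of oxidative phosphorylation 48 fell and none rose, with a median of -0.71. Ndufa1, an accessory subunit of complex I, had 47.4 and 65.6 in M354 Tregs, against 178 and 208 in M176 Tregs and 59.0 and 49.9 in WT Tregs (difference -1.79 ± 0.19, adjusted p = 3.79e-06), and Cox7a2, of complex IV, had 161 and 269 in M354 Tregs, against 705 and 596 in M176 Tregs (difference -1.64 ± 0.22, adjusted p = 3.88e-05). Proteasome subunits fell in 23 of 37 cases and rose in none, 11 without M354 array 1 and 13 without M176 array 1, for example Psma7, of the core ring, with 166 and 212 in M354 Tregs, against 539 and 468 in M176 Tregs (difference -1.42 ± 0.16, adjusted p = 9.47e-06). Ribosome biogenesis factors fell in 14 of 38 cases, 4 without M354 array 1 and 5 without M176 array 1. Nop10, a protein of the snoRNA complex that makes pseudouridine, fell (difference -1.10 ± 0.18, adjusted p = 0.00033).

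Single genes outside these lists were also among the largest falls. Tomm7 and Tomm20, parts of the gate through which proteins enter mitochondria, were both lower. Tomm7 had 265 and 425 in M354 Tregs, against 1227 and 1215 in M176 Tregs (difference -1.86 ± 0.19, adjusted p = 3.77e-06). Tomm20 had 460.5 and 652 in M354 Tregs, against 2184 and 1537 in M176 Tregs (difference -1.74 ± 0.24, adjusted p = 6.4e-05). Srp14, of the signal recognition particle, had 125 and 176.3 in M354 Tregs, against 528 and 513 in M176 Tregs (difference -1.81 ± 0.15, adjusted p = 4.27e-07). Pop5, a protein subunit of RNase P, had 190.3 and 208 in M354 Tregs, against 631 and 739 in M176 Tregs (difference -1.78 ± 0.18, adjusted p = 3.77e-06). The RNA components Rprl1 and Rprl2, which are like the RNA of RNase P, and the vault RNA Vaultrc5 fell too. Vaultrc5 had 78.0 and 73.9 in M354 Tregs, against 584 and 364 in M176 Tregs and 102 and 109 in WT Tregs (difference -2.60 ± 0.63, adjusted p = 0.00535, or 0.061 without M176 array 1). Rprl1 differed by -1.93 ± 0.49 (adjusted p = 0.00673), or 0.10 without M354 array 1, and Rprl2 by -1.88 ± 0.53 (adjusted p = 0.0126), with an adjusted p of 0.053 to 0.12 without M354 array 1, M176 array 1 or M176 array 2. Chil5, a chitinase-like protein, had 43.0 and 53.6 in M354 Tregs, against 272 and 240.4 in M176 Tregs and 84.4 and 84.3 in WT Tregs (difference -2.41 ± 0.15, adjusted p = 2.33e-08), and Zfp931, a zinc finger protein, had 28.6 and 35.7 in M354 Tregs, against 125 and 122 in M176 Tregs and 31.0 and 53.4 in WT Tregs (difference -1.95 ± 0.28, adjusted p = 6.99e-05). Among Treg arrays, Chil5 and Zfp931 exceeded the array median in M176 only. For the 2 gene classes that follow, the shares over all tested genes were 12.7% called higher and 18.1% called lower. Of 9 T cell receptor gene segments 7 fell, 2 without M354 array 1 and 4 without M176 array 1. Clustered histone genes did not move one way, with 3 higher and 4 lower of 20, and 8 lower without either M354 array of transduced cells. H2bc4, a histone H2B gene, had 216 and 167 in M354 Tregs, against 957 and 982 in M176 Tregs and 298 and 237 in WT Tregs (difference -2.35 ± 0.22, adjusted p = 1.44e-06), while the linker histone H1f5 had 349.9 and 541 in M354 Tregs, against 233 and 237 in M176 Tregs and rose (0.89 ± 0.22, adjusted p = 0.00555), a call that was lost without M354 array 2 (adjusted p = 0.088).

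Gene span moved with the calls. Over 8556 tested protein-coding genes, the median genomic span (GRCm38) was 29.6 kb for genes called higher, 12.3 kb for genes called lower and 24.7 kb for genes not called. The genes were put in 5 equal groups by span. Of the shortest, up to 7.6 kb, 30.2% were called lower, and of the longest, from 61.29 kb, 7.0%. The share called higher was 18.2% among the longest and at most 12.3% in every other group. The snoRNA level moved with the allele among the Treg arrays, so that the 2 cannot be told apart for these gene groups. When the mean snoRNA level of each array was added to the fit, 570 genes were called (166 higher, 404 lower), of which 513 were among the 2747. Replicate arrays differed in this level mainly among transduced cells. In that fit 11 of 55 cytosolic ribosomal protein genes, 17 of 60 mitochondrial ribosomal protein genes, 19 of 62 oxidative phosphorylation subunits, 6 of 37 proteasome subunits and 2 of 38 ribosome biogenesis factors fell. Of 105 called genes followed singly in that fit, 71 kept their call and direction, 31 lost the call and 3 changed direction. Gzmb, Cxcr6, Klrg1, Tigit, Ccna2, Mki67, Ahr, Penk, Cxcl10, Fos, Hspa1a and Hspe1 were among those still called there in the same direction.

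**Figure D4:**
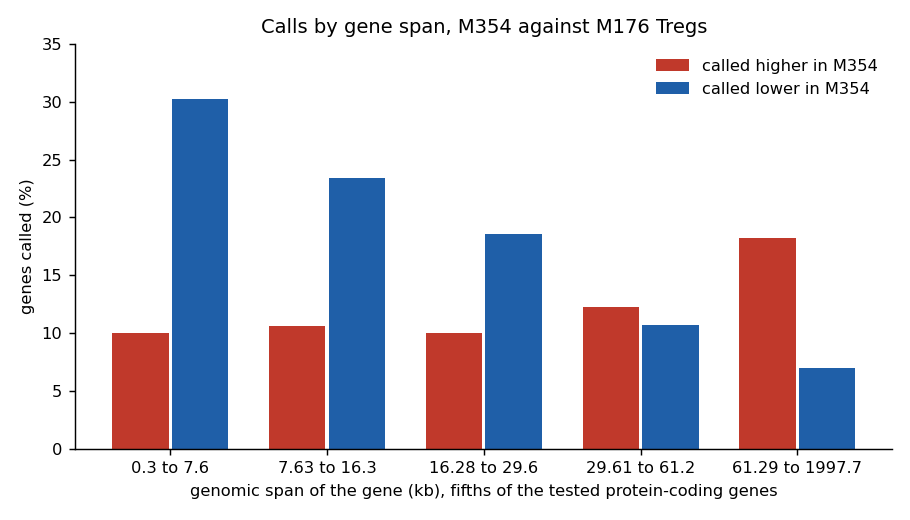
Share of tested protein-coding genes called higher (red) or lower (blue) in M354 against M176 Tregs, in 5 equal groups by genomic span in kb, with the shortest genes on the left. The share called lower was 30.2% among the shortest and 7.0% among the longest, and the share called higher was 18.2% among the longest.

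MicroRNA genes, whose short precursors the array also covers, ran against the other short RNAs. Of 70 tested, 38 rose and 2 fell, with a median of 0.43. The number that rose was 12 without M354 array 1, 15 without M176 array 1, 25 without M176 array 2, 24 with median centring and 6 with the snoRNA level in the fit. Mir155, which encodes miR-155 that sustains Treg numbers and is a known Foxp3 target, had 146 and 141 in M354 Tregs, against 51.0 and 71.3 in M176 Tregs and 116 and 117 in WT Tregs (difference 1.25 ± 0.20, adjusted p = 0.000169). Mir505 had 2294 and 1512 in M354 Tregs, against 420.0 and 637 in M176 Tregs (difference 1.85 ± 0.26, adjusted p = 7.1e-05). Mir15b, a member of the miR-15 and miR-16 family that restrains cyclins, was the larger of the 2 falls, with 26.7 and 45.6 in M354 Tregs, against 235 and 299 in M176 Tregs. WT Tregs had 54.9 and 69.5. Both M176 arrays stood above all other Treg arrays (difference -2.93 ± 0.24, adjusted p = 3.23e-07), while Smc4, the condensin gene in which it lies, fell by 0.44 (adjusted p = 0.0264). The mature sequences of the 3 genes are given from RefSeq with the seed, bases 2 to 8, in capitals, because these bases set which messages they can pair with. No 2 of the seeds are the same, and the array does not measure the mature forms: 
mmu-miR-155-5p: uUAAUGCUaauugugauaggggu
mmu-miR-505-3p: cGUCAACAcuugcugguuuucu
mmu-miR-15b-5p: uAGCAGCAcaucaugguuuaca

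Signalling and chromatin genes changed in both directions. Among all tested genes 12.7% were called higher and 18.1% lower. Of 44 chromatin and DNA methylation regulators 12 rose and 7 fell, and the number that rose was 5 without M354 array 1, 3 without M176 array 1, 7 with median centring and 2 with the snoRNA level in the fit. Uhrf1, which keeps DNA methylation through replication, rose by 1.18 ± 0.16 (adjusted p = 4.68e-05), and Cbx5, heterochromatin protein 1 alpha, by 1.16 ± 0.15 (adjusted p = 2.39e-05). Of 28 dual-specificity and tyrosine phosphatases 9 rose and 3 fell, with 5 that rose without M354 array 2, M176 array 1 or M176 array 2 and with median centring, and 1 with the snoRNA level in the fit. Ptpn13 rose by 1.16 ± 0.13 (adjusted p = 6.56e-06), and Ptprj, a receptor phosphatase, had 488 and 480.5 in M354 Tregs, against 240.4 and 253 in M176 Tregs and 766 and 702 in WT Tregs, where WT was above both mutants (difference 0.97 ± 0.14, adjusted p = 9.69e-05). Solute carrier transporters rose in 29 and fell in 12 of 155 cases, with 17 that rose without M354 array 1 or M176 array 1, 18 with median centring and 2 with the snoRNA level in the fit. Slc43a3, a purine nucleobase transporter, had 857 and 838 in M354 Tregs, against 326 and 299 in M176 Tregs and 464 and 483 in WT Tregs, where M354 was above both other groups (difference 1.44 ± 0.14, adjusted p = 2.8e-06). In the BCL-2 and cell death list 2 of 26 rose and 4 fell, with 1 that fell without M354 array 1, M176 array 1 or under quantile normalization. Casp4, the inflammatory caspase-11, had 408 and 449.5 in M354 Tregs, against 256 and 224 in M176 Tregs and 188 and 206 in WT Tregs, high in M354 alone (difference 0.84 ± 0.13, adjusted p = 0.00015).

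The level in WT Tregs was set beside both alleles, in comparisons that share the WT arrays. Among the 1129 genes called higher in M354, the WT mean lay between the other means in 812, nearer to M354 in 639 of them and nearer to M176 in 173. Among the 1618 called lower, it lay between them in 1121, nearer to M354 in 918 and nearer to M176 in 203. For all 8918 tested genes it lay between them in 4223, nearer to M354 in 2969. At an adjusted p under 0.05, M354 differed from WT at 161 genes and M176 differed from WT at 2206 genes. M354 differed from WT by 2.28 ± 0.19 (adjusted p = 6.46e-06) for Cxcr6, by 2.03 ± 0.15 (adjusted p = 2.25e-06) for Cxcl10, by 1.12 ± 0.13 (adjusted p = 7.88e-05) for Casp4 and by 1.06 ± 0.14 (adjusted p = 0.000401) for Bhlhe40. The same difference of M354 from WT was 0.01 ± 0.18 (adjusted p = 0.993) for Klrg1, 0.29 ± 0.21 (adjusted p = 0.693) for Gzmb, -0.13 ± 0.13 (adjusted p = 0.806) for Hspa1a and -0.04 ± 0.21 (adjusted p = 0.977) for Rps21. M176 differed from WT by -2.26 ± 0.18 (adjusted p = 6.63e-07) for Klrg1 and by 2.85 ± 0.13 (adjusted p = 5.44e-10) for Hspa1a, and by 0.02 ± 0.15 (adjusted p = 0.931) for Cxcl10.

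The allele difference was then compared with that in transduced cells, which share no array with the Tregs. There, 7 of 8918 genes (0.0785%) were called between M354 and M176, with 463 at an unadjusted p under 0.05. Of the 7, 6 (85.7%) were among the 2747 called in Tregs, of which they are 0.218%, and 30.8% of all tested genes were called in Tregs. Of these 6, 4 had the same direction in both systems and 2 the opposite direction. Of the 2747, 1044 (38%) had the same sign in transduced cells. The number called in transduced cells was 1 without M354 array 1 or M176 array 2, 2 without M176 array 1, 4 without M354 array 2 and 18 without either WT array of transduced cells. The difference between the 2 systems was itself called at 1588 genes (17.8%), and at 804 without M354 Treg array 1, 735 without M176 Treg array 1, 906 without M354 transduced array 1 and 809 without M176 transduced array 1. It was called at 14 of the 20 effector Treg genes, all in the positive direction. For example, Klrg1 differed between the alleles by 2.27 ± 0.18 (adjusted p = 3.11e-07) in Tregs, against -0.46 ± 0.18 (adjusted p = 0.729) in transduced cells, and Ahr by 2.34 ± 0.15 (adjusted p = 1.7e-08) in Tregs, against -0.06 ± 0.15 (adjusted p = 0.993) in transduced cells. Hspa1a had -0.16 ± 0.13 (adjusted p = 0.993) and Cxcr6 0.36 ± 0.19 (adjusted p = 0.991) in transduced cells. Mitosis and spindle genes had a median of 0.99 in Tregs, against 0.61 in transduced cells, where 2 of 52 were called. The difference between systems was called at 16 of these 52. Kif4, a mitotic kinesin, was higher with M354 in both systems (0.97 ± 0.16, adjusted p = 0.000249 in Tregs, 0.99 ± 0.16, adjusted p = 0.0198 in transduced cells), and so were Zwilch, of the kinetochore (0.85 ± 0.15, adjusted p = 0.000429 and 0.87 ± 0.15, adjusted p = 0.0257), and Shcbp1, a protein of the dividing cell's midbody (0.63 ± 0.13, adjusted p = 0.00165 and 0.81 ± 0.13, adjusted p = 0.0198). Kif4 and Shcbp1 lay below the array median on every Treg array and passed the filter through arrays of transduced cells. In Tregs Kif4 had 53.0 and 68.9 in M354, against 34.8 and 27.3 in M176. Shcbp1 had 40.4 and 45.3, against 26.6 and 28.9, and Zwilch 98.7 and 112.7, against 58.9 and 58.5. Gpr83 was lower with M354 in both systems (-0.54 ± 0.15, adjusted p = 0.0135 in Tregs, -0.84 ± 0.15, adjusted p = 0.0462 in transduced cells). Ctsg, the protease cathepsin G, was higher with M354 in Tregs (0.58 ± 0.16, adjusted p = 0.0113) and lower with M354 in transduced cells (-1.45 ± 0.16, adjusted p = 0.000588). Gzmc, granzyme C, was lower with M354 in Tregs (-0.52 ± 0.16, adjusted p = 0.0236) and higher with M354 in transduced cells (0.99 ± 0.16, adjusted p = 0.024). Ctsg passed the filter through the 2 M176 arrays of transduced cells. In Tregs both were dim, with 63.1 and 46.5 for Ctsg in M354, against 40.2 and 32.7 in M176, and their calls there were lost without M354 array 1 (adjusted p = 0.19 for Ctsg and 0.20 for Gzmc) or without M176 array 2 (0.13 and 0.29).

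**Figure D5:**
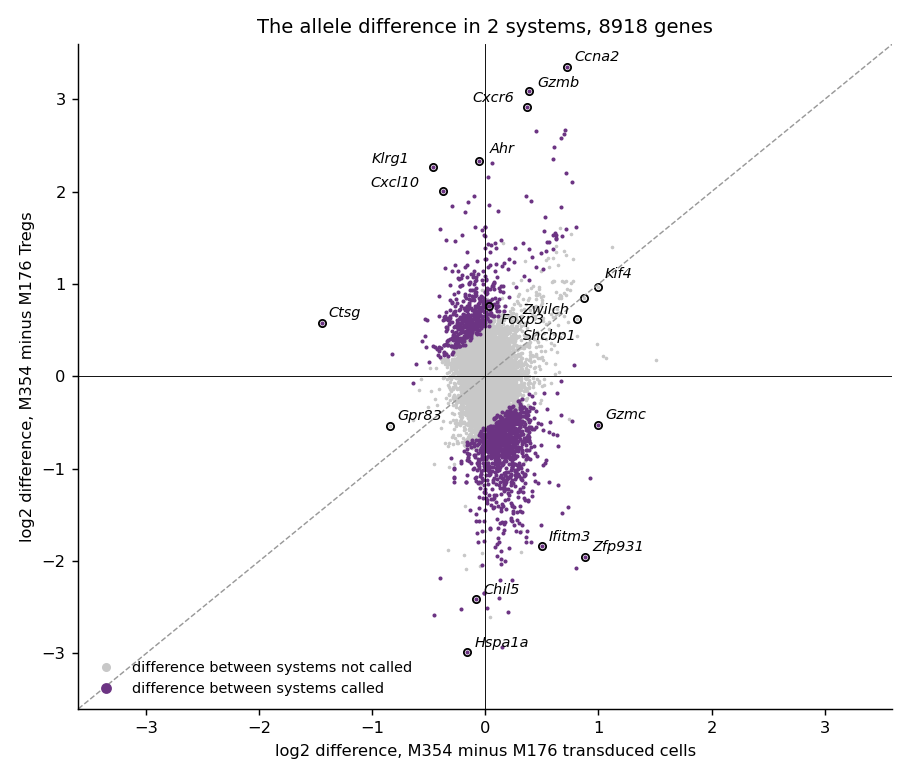
Each point is 1 of 8918 tested genes, placed by its log2 difference, M354 minus M176, in transduced cells (x axis) and in Tregs (y axis), with the dashed line at equal differences and the 1588 genes whose difference between the systems was called in purple. Hspa1a and Ahr lie near 0 on the x axis, Kif4 and Zwilch lie close to the dashed line, and Ctsg and Gzmc lie on opposite sides of 0 in the 2 systems.

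Markers of other cell types were measured in the sorted Tregs. Their counts are to be read beside the 12.7% of all tested genes called higher and the 18.1% called lower. B cell markers had a mean log2 intensity of 7.05 and 7.08 in M354 Tregs, against 6.95 and 6.87 in M176 Tregs, and 2 of 14 were called higher and 1 lower. Without M354 array 1, M176 array 1 or M176 array 2 none was called higher, and the median of 0.11 was -0.03 with median centring. The defining B cell gene Ms4a1, which encodes CD20, had 44.8 and 36.2 in M354 Tregs, against 36.5 and 43.0 in M176 Tregs. The summed intensity of 4 myeloid markers was 660 and 719 in M354 Tregs, against 498 and 443 in M176 Tregs, with 2 called higher, and 1 without M354 array 1, M354 array 2 or M176 array 2. That of 6 dendritic cell markers was 2725 and 2751 in M354 Tregs, against 3874 and 4083 in M176 Tregs, with 2 lower, Ccr9 among them, and 1 lower without M354 array 1 or M176 array 2. That of 7 markers of CD8+ T and NK cells was 1067 and 1002 in M354 Tregs, against 1291 and 1093 in M176 Tregs, with 1 higher and 2 lower, and none called without M176 array 1. The 3 tested plasma cell markers summed to 581 and 707 in M354 Tregs, against 467 and 462 in M176 Tregs, with 1 higher, and none without M354 array 2, M176 array 1 or M176 array 2. What part such cells have in the results was not tested.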

How the data were processed

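Expression was measured on Affymetrix Mouse Gene ST 1.0 arrays, 12 in all and 2 per group, from Trizol RNA amplified with a whole-transcript kit, per the labels' protocols. The deposited intensity values were made by the authors with Affymetrix Power Tools and RMA, per the submitters' processing notes (versions and genome build not given in the sources used here). They are 1 value per probe set, on a linear scale, with array medians of 101.5 to 117.4, and were used without further scaling. Of 20716 probe sets, 17703 named 1 gene symbol, 1246 several and 1767 none. The brightest probe set by the mean of 12 arrays stood for each of the 734 genes with several.

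Log2 intensities of the 8918 genes above their array's median on at least 2 arrays entered a limma fit (3.58.1, R 4.3.3) of 6 groups without a block, all 12 arrays sharing 1 estimate of the spread. Genes were called at an adjusted p under 0.05 (Benjamini-Hochberg over all tested genes). No count model was used, since arrays give no counts, and the number of arrays limits the precision. The scripts were tested on simulated data. Named genes were Foxp3, the 15 largest rises and falls of called genes outside the snoRNA, ribosomal protein, histone, microRNA and T cell receptor or immunoglobulin segment classes, up to 5 called members of a list, the 10 largest called differences between systems over all genes, and genes called in both systems; members that define a list but were not called are given with their values. The members, lists and tests were chosen with earlier results of these data known. Alternatives were other scaling, filters, probe set rules, offsets, sets of arrays, a replicate block, the snoRNA level as a covariate, and leaving out each array. The result of 1 gene list is not reported here.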

Additional observations from a re-analysis of the deposited data

Results flagged for a closer look

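The difference between M354 and M176 was not the same in Tregs and in transduced cells at 1588 genes, by the interaction term of limma over 8918 genes (adjusted p under 0.05). For Foxp3 the log2 difference in Tregs exceeded that in transduced cells by 0.73, where the transduced value also includes retroviral Foxp3. The largest of these gaps (difference in Tregs minus difference in transduced cells, log2) were -3.07 for Mir15b, -2.87 for the snoRNA gene Snord61, -2.84 for Zfp931, -2.82 for Hspa1a and -2.75 for Rps21. They were 2.73 for Klrg1, 2.71 for Gzmb, 2.63 for Ccna2 and 2.55 for Cxcr6, and -2.53 for Snord35b. Snord61 passed the filter only through the 2 M176 Treg arrays, with 155 and 117, and was dim on every other array. In transduced cells it had 36.5 and 36.1 with M354, against 23.3 and 18.8 with M176. Ctsg with 2.03 and Gzmc with -1.52 were called in opposite directions in the 2 systems. Why the systems differ was not tested, and cell type, culture and the source of Foxp3 cannot be told apart.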

How the results depend on the processing

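With genes above the array's percentile 75 only, which tests fewer genes, 1572 genes were called (561 higher, 1011 lower), 0 in transduced cells (7 without this filter at limma's adjusted p under 0.05, 463 at an unadjusted p under 0.05) and 974 in the difference between systems. There 21 mitosis genes and 11 DNA replication genes rose, and 26 mitochondrial ribosomal protein genes fell. With median centring 564 genes were higher, 2 were called in transduced cells, and 8 Treg signature and 14 DNA replication genes rose; quantile normalization left 1 call in transduced cells. Adding the array's snoRNA level to the fit left 570 calls (166 higher, 404 lower), 12 in transduced cells and 355 in the difference. There 10 effector, 5 Treg signature, 6 cell cycle, 19 mitosis and 5 DNA replication genes rose. In that fit 4 genes low in Tregs, 6 chaperones, 6 snoRNAs, 11 cytosolic and 17 mitochondrial ribosomal protein genes, 19 oxidative phosphorylation subunits and 6 proteasome subunits fell, and Vaultrc5 (1.02), Rprl1 (0.78) and Rprl2 (1.04) turned positive without being called. The cause of these shifts was not tested. The covariate is the mean of the same 36 snoRNAs, so their own count in that fit is no separate check. Leaving out 1 array gave 1343 to 2879 calls (539 to 1190 higher, 764 to 1689 lower), 1 to 18 in transduced cells and 735 to 1792 in the difference. The number that rose was then 14 to 18 for effector, 8 to 13 for Treg signature, 15 to 18 for cell cycle, 37 to 42 for mitosis and 14 to 23 for DNA replication genes. The number that fell was 5 to 8 for genes low in Tregs, 13 to 23 for chaperones, 17 to 27 for snoRNAs, 25 to 38 for cytosolic and 28 to 49 for mitochondrial ribosomal protein genes, 36 to 49 for oxidative phosphorylation and 11 to 24 for proteasome subunits. A replicate block gave 2360 calls (934 higher, 1426 lower), with 5 co-inhibitory and 2 TNF receptor family genes higher. The numbers did not pair the arrays: deviations from group means correlated at -0.039 to 0.077 between Treg groups and -0.551 to 0.045 between transduced groups. Dim probe sets near background compress differences, and 2 arrays per group limit precision.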

Other observations

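Of 45 actin cytoskeleton and motility genes 9 were called higher and 7 lower in M354 against M176 Tregs (30.8% of all tested genes were called), with 4 higher without M354 array 2 and 3 higher without M176 array 1. Of 24 interleukin receptors and STAT5 feedback genes 4 were higher and 3 lower, with 2 higher without M176 array 1. Both killer lectin-like receptors that were called, of 3 tested, were higher, with a median log2 difference of 0.94 over the 3, and 1 was higher without M354 array 1 or M176 array 2. Of 8 immunoglobulin gene segments 1 was higher, with none without M354 array 1 or M176 array 1, 3 without M354 array 2 and 2 without either WT array of transduced cells. Of 2 mitochondrially encoded genes tested, limma called 0 (also 0 at an unadjusted p under 0.05), with log2 differences of -0.26 and 0.10.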
